A study of Mus musculus with 22 samples.

Results

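Alveolar macrophages and inflammatory monocytes sorted from lung tissue were compared 14 d after a mutant surfactant protein had been switched on in the alveolar epithelium, to see which traits still set the cell types apart in the fibrotic phase. The macrophages were sorted as SigF+CD11b- (3 libraries) and the monocytes as CD11b+Ly6Chi (4 libraries). Per the study's text, monocytes were gated among viable CD45+ singlets as CD11c- and CD64-, with alveolar macrophages, eosinophils, Ly6G+ neutrophils and CD3+ lymphocytes gated out. All mice were labelled C57BL/6 of the SP-C I73T mutant genotype, in which the mutant Sftpc allele holds a neomycin cassette. In the inducible line, made with an estrogen receptor-controlled Flp-O recombinase in the Rosa26 locus, a single tamoxifen gavage removes the cassette and raises the mutant protein, and the mice of both 14 d groups received it. Controls of both cell types (4 libraries each) were labelled with the same genotype and as untreated. The study describes controls of the monocyte experiment as given oil, and its methods pool such mice with tamoxifen-treated mice that lack the recombinase, so whether each control mouse carried it is not given in the sources used here. The mutant protein is made by the epithelium and not by the sorted cells. Per the labels, lungs were lavaged and then digested, and the cells were sorted from the suspension. The labels do not say how many animals gave a library or whether a macrophage and a monocyte library came from 1 mouse. Of the 22 libraries of the series, 7 entered the main comparison and 8 controls a second one. The genes described were those with a mean CPM (counts scaled to a common library total) of 10 or more in either 14 d group, 9902 of the 31116 genes present in the count tables of both cell types.

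Alveolar macrophages are long-lived cells of the airspace that clear surfactant lipid, and their identity rests on granulocyte-macrophage colony-stimulating factor and the nuclear receptor PPARγ. Classical Ly6Chi monocytes leave the bone marrow by way of CCR2, enter injured tissue and can mature into macrophages there. In fibrotic lungs, monocyte-derived macrophages are known for expressing osteopontin, lipid-handling genes and matrix-modifying enzymes.

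The macrophage libraries were the shallower ones, with 4610720 to 6838893 counts against 21131493 to 27013525 in the monocytes, so that 3 counts, taken as the smallest signal, equalled 0.439 to 0.651 CPM and 0.111 to 0.142 CPM. Among the 31116 genes present in both tables, more were nevertheless detected in the macrophages (27687 to 30611 against 21445 to 25207). The share of mitochondrial counts was higher as well (2.33 to 3.95% against 1.23 to 1.80%). None of these ranges overlapped, and each had an exact two-sided permutation p = 0.0571, the smallest that 3 against 4 libraries allow. The number of genes detected is no even comparison. It leaves out 24305 genes listed for the monocytes alone, and no gene of the macrophage table lacked a count. The tables of the cell types were not alike either, with 31134 genes in the macrophage table and 55421 in the monocyte table, so cell type and table cannot be told apart. In bulk samples, fewer cells of a type and less RNA per cell cannot be told apart either.

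How many genes were higher in either cell type depended on the normalization. A call required an adjusted p-value under 0.05 (edgeR's quasi-likelihood test, Benjamini-Hochberg adjustment) together with a difference over 1.5-fold. With TMM normalization over all tested genes, 2262 of the 9902 genes (22.8%) were called higher in macrophages and 5162 (52.1%) in monocytes, beside 40.9% and 25.6% of the 23310 genes tested. Scaling by library size turned this split to 4199 and 2107, and the median log2 fold change of the 9902 genes (macrophages over monocytes, throughout) moved from -0.70 to 0.35. A difference is therefore called held only if it passed in the same direction in 6 fits. These were TMM, DESeq2, library size, upper quartile, TMM factors drawn from abundant genes (mean log2 CPM over 5) and TMM without a low count filter. Held differences numbered 2153 (21.7%) for macrophages and 2106 (21.3%) for monocytes, and 1211 and 1350 of these exceeded 4-fold. Over all tested genes 38.1% were held higher in macrophages and 9.94% in monocytes, and these shares are set beside the gene groups that follow. The lists other than cell type markers hold mostly genes of 10 CPM or more, for which the shares were 21.7% and 21.3%. A list can stand differently against each of these backgrounds. Apart from the lists of cell type markers, the macrophage share exceeded 38.1% for 3 lists, those of cell cycle, alveolar macrophage identity and cholesterol synthesis. The 9902 genes were admitted by their level in either group, 1546 of them through the macrophages alone and 1276 through the monocytes alone, so their own counts describe the set and are no test of it.

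**Figure D1:**
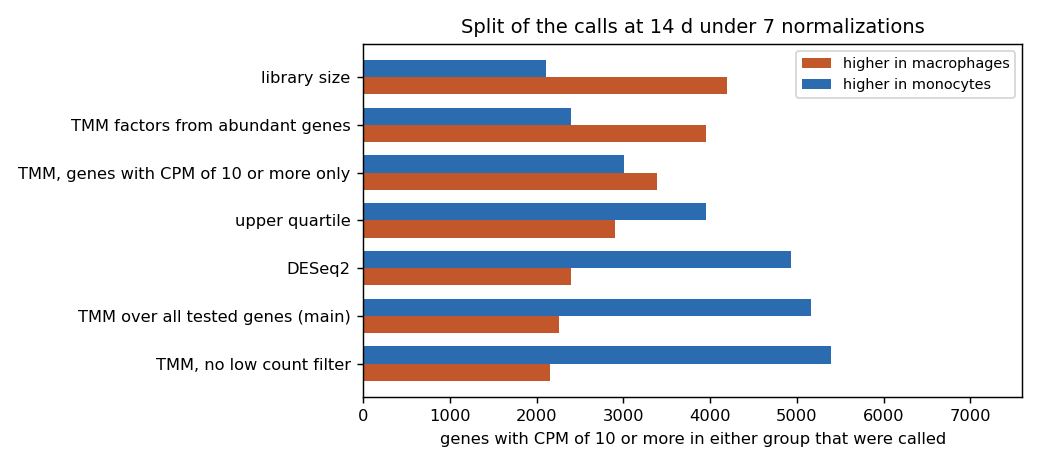
Genes among the 9902 called higher in macrophages (orange bars) or in monocytes (blue bars) at 14 d, on the x axis, under 7 normalizations, on the y axis. The split runs from 4199 against 2107 with library size scaling to 2154 against 5392 with TMM and no low count filter.

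The genes of the labelled sort proteins (SigF, CD11b and Ly6C) differed in the direction of the gates, whereas Fcgr1, for the CD64 that the monocytes were gated to lack, did not. Siglecf (ENSMUSG00000039013, chr7:43351341-43359531, GRCm38), which encodes the lectin used to gate alveolar macrophages, was measured at 97.7, 100.9 and 74.2 CPM in macrophages and 2.79, 6.42, 4.19 and 5.02 CPM in monocytes. Every macrophage library lay above every monocyte library (log2 fold change 4.30, SE 0.27, adjusted p = 4.23e-08). Ly6c2 (ENSMUSG00000022584, chr15:75108158-75111970), which encodes the Ly6C antigen of classical monocytes, was at 5.06, 2.59 and 0.975 CPM in macrophages and 2337, 1953, 1728 and 1669 CPM in monocytes, a 656-fold difference (log2 fold change -9.36, SE 0.44, adjusted p = 6.82e-09). Its near-identical neighbour Ly6c1 was at 3.29, 2.99 and 4.60 CPM and 75.7, 17.4, 19.7 and 14.8 CPM, and reads may be split between the pair.

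Ccr2, the receptor that draws monocytes to tissue, was at 71.8, 29.8 and 29.5 CPM in macrophages and 3686, 2609.9, 2069.7 and 2152 CPM in monocytes (log2 fold change -5.91, SE 0.40, adjusted p = 1.39e-07). Itgam, which encodes CD11b, was at 83.6, 43.5 and 58.9 CPM in macrophages and 380.3, 353, 383 and 405 CPM in monocytes (log2 fold change -2.62, SE 0.22, adjusted p = 5.33e-07), with 69% of its annotated exonic bases shared with another gene model. In the cells gated as CD11b-, Itgam was thus lower but above the 3-count floor in every library. Itgax, which encodes CD11c and is typical of alveolar macrophages, was at 404, 445 and 493 CPM in macrophages and 73.8, 156, 211 and 211 CPM in monocytes (log2 fold change 1.46, SE 0.29, adjusted p = 6.27e-04), so the monocytes, gated as CD11c-, held a measurable level. Fcgr1, which encodes the Fc receptor CD64, was at 31.5, 25.5 and 14.8 CPM in macrophages and 223, 250.2, 261 and 205 CPM in monocytes and thus held higher in the cells gated as CD64- (log2 fold change -3.29, SE 0.25, adjusted p = 2.32e-07), and surface protein was not measured here. The pan-leukocyte gene Ptprc was also held higher in monocytes (-2.13, adjusted p = 3.98e-06). Spn, which encodes CD43, overlapped between the groups (35.98, 31.5 and 28.5 CPM against 29.9, 31.4, 37.1 and 45.2 CPM) and was not called, and its sign turned with library size (0.88) and upper quartile (0.26) scaling. The neutrophil gene Ly6g did not exceed 1.76 CPM in any library, and Cd3e of T cells stood at 4.94, 5.59 and 7.24 CPM in macrophages against 1.57, 1.32, 1.08 and 1.43 CPM in monocytes (log2 fold change 2.12, SE 0.38, adjusted p = 3.27e-04).

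**Figure D2:**
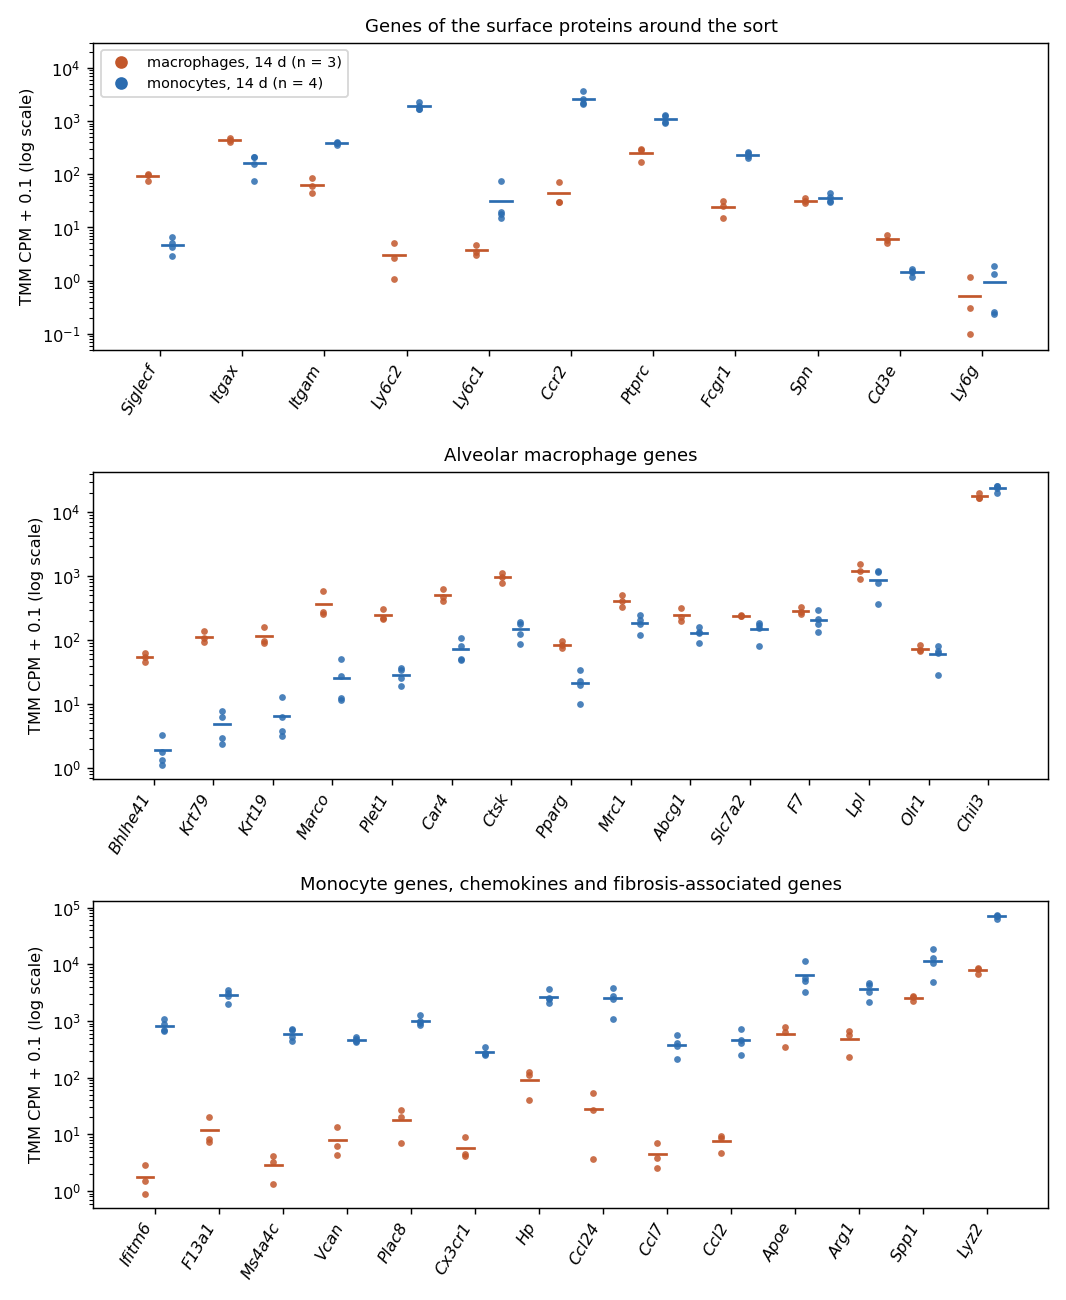
Level of each gene (x axis) in each library on the y axis (TMM CPM + 0.1, log scale), for 3 macrophage (orange) and 4 monocyte (blue) libraries at 14 d, with a bar at the group mean. Krt79, Marco and Siglecf separate the groups fully, whereas F7, Lpl, Olr1 and Chil3 overlap, and the monocyte genes of the bottom panel lie apart in every library.

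Alveolar macrophage identity remained distinct for most of its list but not for all of it. Of 30 identity genes, 21 were held higher in macrophages and 0 in monocytes, with a median log2 fold change of 1.43 beside 0.75 for all tested genes. Bhlhe41, a transcription factor that restrains alveolar macrophage proliferation, was at 54.7, 62.3 and 46.2 CPM in macrophages and 1.03, 1.70, 3.25 and 1.23 CPM in monocytes (log2 fold change 4.93, SE 0.34, adjusted p = 9.47e-08). Krt79, a keratin found in these macrophages, was at 93.9, 108 and 137 CPM in macrophages and 2.85, 7.62, 2.30 and 6.09 CPM in monocytes (log2 fold change 4.57, SE 0.36, adjusted p = 3.80e-07). Marco, a scavenger receptor for particles and bacteria, was at 279, 579 and 254 CPM in macrophages and 11.4, 49.99, 26.98 and 12.5 CPM in monocytes, with the ranges far apart despite a spread in both groups (log2 fold change 3.88, SE 0.56, adjusted p = 2.99e-04).

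Cidec, a lipid droplet protein (26.5 ± 7.72 against 0.744 ± 0.481 CPM, mean ± SD, log2 fold change 5.11), Krt19 (116 ± 37.1 against 6.36 ± 4.40 CPM, 4.19) and Plet1 (248 ± 51.5 against 28.9 ± 7.77 CPM, 3.10) were held in the same direction. So were the carbonic anhydrase gene Car4 (2.81) and Ctsk, which encodes the collagen-degrading cathepsin K (2.71). Pparg, the nuclear receptor behind the alveolar macrophage programme, was at 84.9, 74.7 and 95.8 CPM in macrophages and 10.1, 19.9, 23.1 and 33.6 CPM in monocytes (log2 fold change 1.97, SE 0.30, adjusted p = 8.54e-05). The lower differences belonged to genes that the monocytes also expressed. Mrc1, the mannose receptor CD206, was at 417, 504 and 330.3 CPM in macrophages and 120.1, 247, 177 and 209.5 CPM in monocytes (log2 fold change 1.15, SE 0.23, adjusted p = 7.25e-04), and this call was lost in a fit over all 22 libraries (adjusted p = 0.0912). Abcg1, the cholesterol exporter needed for surfactant clearance, was at 233, 314 and 198 CPM in macrophages and 89.9, 135, 159 and 130.1 CPM in monocytes (log2 fold change 0.95, SE 0.22, adjusted p = 0.00166).

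For a further group of identity genes, the separation depended on the scaling. Lpl, lipoprotein lipase, was at 1205, 1558 and 916 CPM in macrophages and 365, 772, 1209.7 and 1165 CPM in monocytes (log2 fold change 0.48, SE 0.34, adjusted p = 0.230). F7, coagulation factor VII, was at 256, 333 and 273 CPM in macrophages and 133, 216, 296 and 176 CPM in monocytes (log2 fold change 0.49, SE 0.24, adjusted p = 0.0824). Olr1, a receptor for oxidized lipoprotein, was at 82.8, 70.3 and 68.5 CPM in macrophages and 28.2, 62.6, 68.1 and 81.2 CPM in monocytes (log2 fold change 0.30, SE 0.28, adjusted p = 0.353). On the TMM scale the groups overlapped for all 3 genes and none was called. Each was called higher in macrophages under 5 alternatives, which were library size, upper quartile, TMM factors from abundant genes, the limit to genes of 10 CPM or more and thinned counts. There the log2 fold change was 0.93 to 1.54 for Lpl, 0.91 to 1.54 for F7 and 0.74 to 1.35 for Olr1, and F7 was also called without the third monocyte library (0.76, adjusted p = 0.0104). Chil3, which encodes the chitinase-like protein Ym1, was abundant in both cell types, at 16586, 20275 and 17004 CPM in macrophages and 20146, 23566, 26151 and 25500.1 CPM in monocytes, and its direction was set by the scaling (-0.41, against 0.01 with upper quartile, 0.54 with TMM factors from abundant genes and 0.64 with library size).

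Most of the monocyte programme remained apart as well. Of 30 genes of classical and patrolling monocytes, 22 were held higher in monocytes and 0 in macrophages (median log2 fold change -3.36). Ifitm6, of the interferon-induced transmembrane family, was at 2.82, 0.798 and 1.39 CPM in macrophages and 1082, 878, 679.7 and 658 CPM in monocytes (log2 fold change -8.96, SE 0.40, adjusted p = 3.74e-09). F13a1, the A subunit of coagulation factor XIII, was at 19.9, 7.08 and 8.08 CPM in macrophages and 3504, 2018, 2727 and 3117 CPM in monocytes (log2 fold change -7.93, SE 0.43, adjusted p = 2.82e-08). No macrophage library came near the monocytes for either gene.

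Vcan, the matrix proteoglycan versican, was at 7.82 ± 4.73 CPM in macrophages and 467 ± 40.3 CPM in monocytes (log2 fold change -5.88, SE 0.35, adjusted p = 3.52e-08). Plac8 was at 18.1 ± 10.3 and 1013 ± 171 CPM (log2 fold change -5.81, SE 0.43, adjusted p = 3.55e-07). Ms4a4c was at 2.82 ± 1.45 and 594 ± 134 CPM (log2 fold change -7.69, SE 0.37, adjusted p = 6.69e-09). The haptoglobin gene Hp, whose product binds free hemoglobin, stood at 112, 124 and 40.1 CPM against 3662, 2498, 2486 and 2079 CPM (-4.86). Cx3cr1, the fractalkine receptor of patrolling monocytes, was at 8.82, 3.99 and 4.32 CPM in macrophages and 274, 265, 253 and 347 CPM in monocytes (log2 fold change -5.64, SE 0.31, adjusted p = 1.87e-08). Csf1r, the receptor for macrophage colony-stimulating factor, was present in both types and held higher in monocytes (261 ± 16.7 against 2338 ± 307 CPM, -3.16).

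Among 25 transcription factors tied to either identity, 6 were held higher in macrophages and 7 in monocytes. Besides Bhlhe41 and Pparg, the macrophage side held Cebpb (595, 479 and 379 CPM in macrophages and 29.1, 43.8, 49.1 and 62.3 CPM in monocytes, log2 fold change 3.39, SE 0.25, adjusted p = 1.61e-07) and Cebpa (184, 189.9 and 167 CPM in macrophages and 14.7, 24.4, 39.6 and 51.7 CPM in monocytes, log2 fold change 2.47, SE 0.33, adjusted p = 3.57e-05), which encode C/EBP factors of the myeloid lineage, and Nr1h3, the sterol-sensing receptor LXRα (1.47, SE 0.25, adjusted p = 1.83e-04). Both C/EBP genes were higher in every macrophage library than in any monocyte library, and 21% of the exonic bases of Cebpb are shared with a neighbouring gene model. The monocyte side held Irf5, a driver of inflammatory cytokine genes (88.3 ± 10.9 against 929 ± 91.4 CPM, -3.39), Id2 (-2.88) and Irf8, required for monocyte development (-2.45). Tfec, a factor of the Mitf family, was at 59.4, 73.1 and 47.5 CPM in macrophages and 58.3, 58.7, 67.95 and 55.2 CPM in monocytes and was not called under TMM (adjusted p = 0.999), whereas library size (1.04), TMM factors from abundant genes (0.93) and the limit to genes of 10 CPM or more (0.71) placed it higher in macrophages.

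Chemokine genes were mostly a monocyte trait, with 13 of 20 held higher in monocytes and 2 in macrophages (median log2 fold change -2.47). The largest difference belonged to Ccl24, a chemokine for eosinophils, at 52.9, 3.59 and 27.01 CPM in macrophages and 1100.5, 3839.8, 2466 and 2801 CPM in monocytes (log2 fold change -6.52, SE 1.05, adjusted p = 0.00142). The ligands of CCR2 were on the same side. Ccl2 was at 9.41, 4.59 and 8.49 CPM in macrophages and 252, 456, 718 and 408 CPM in monocytes (log2 fold change -5.94, SE 0.41, adjusted p = 1.54e-07). Ccl7 was at 7.05, 2.49 and 3.76 CPM in macrophages and 213, 363, 555 and 405 CPM in monocytes (log2 fold change -6.44, SE 0.44, adjusted p = 1.57e-07). Ccl12 had 2.12, 0.599 and 0 CPM in macrophages, close to the 3-count floor, and 36.9, 54.6, 93.3 and 51.2 CPM in monocytes (-5.98).

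Ccl6 and Ccl9 were abundant in both cell types and held higher in monocytes (1472 ± 21.5 against 4937 ± 396 CPM for Ccl6, and 185 ± 62.1 against 2621 ± 152 CPM for Ccl9). The chemokines held higher in macrophages were Ccl22, which attracts regulatory T cells (44.7, 103 and 15.2 CPM in macrophages and 4.18, 6.55, 7.10 and 14.4 CPM in monocytes, log2 fold change 2.75, SE 0.60, adjusted p = 0.00284), and Cxcl14 (1.86, SE 0.52, adjusted p = 0.00849). Cxcl14 lost its call without the second macrophage library (adjusted p = 0.0501). Of 30 chemokine and cytokine receptors, 18 were held higher in monocytes and 3 in macrophages, among them Ifngr1, a chain of the interferon-γ receptor (67.8 ± 15.6 against 1163 ± 185 CPM, -4.10), and on the macrophage side Cxcr4, the CXCL12 receptor (172, 102 and 129 CPM in macrophages and 30.9, 25.9, 42.7 and 56.6 CPM in monocytes, log2 fold change 1.78, SE 0.26, adjusted p = 6.10e-05).

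Interferon-stimulated genes were held higher in monocytes for 21 of 30 list members, and in macrophages for 0 (median log2 fold change -2.68). Irf7, the factor that amplifies type I interferon, was at 16.1, 6.09 and 2.65 CPM in macrophages and 156, 132, 124 and 163 CPM in monocytes (log2 fold change -4.11, SE 0.47, adjusted p = 1.66e-05). Ifit3, which encodes an antiviral RNA-binding protein, was at 3.88, 3.19 and 0.418 CPM in macrophages and 9.02, 13.9, 18.9 and 33.5 CPM in monocytes, the lowest monocyte library lying above the highest macrophage library (log2 fold change -2.88, SE 0.59, adjusted p = 0.00113). Oasl2, an oligoadenylate synthetase-like gene, was at 18.9, 15.8 and 9.05 CPM in macrophages and 51.5, 52.4, 51.5 and 93.2 CPM in monocytes (log2 fold change -2.09, SE 0.30, adjusted p = 4.49e-05), and 1 monocyte library stood above the other 3. Usp18, which trims ISG15 from proteins, was at 3.69 ± 0.345 and 30.9 ± 7.64 CPM (-3.07). Xaf1 was at 2.75 ± 1.42 and 49.1 ± 8.47 CPM (-4.13).

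The promoters of this group are shown because most of its members were held on the same side. Windows from 250 bases before to 50 bases after the start were read from RefSeq on GRCm38.p6 and searched for GAAANNGAAA, letters of the interferon-stimulated response element bound by IRF factors, on both strands (TTTCNNTTTC on the reverse). A match was present for 15 of the 22 list genes with a window (68.2%), against 1079 of all 27025 genes with a window (3.99%). The share was 7.08% among genes held higher in monocytes (115 of 1625), which include genes of the list. It was 3.07% among those held higher in macrophages (42 of 1366) and 4.01% among the genes of 10 CPM or more (302 of 7532). Capitals mark the matches, which on Isg15 are 3 that overlap and on Ifit3 lie 156 and 122 bases before the start. The windows are Ifit3 at chr19:34583279-34583578 (plus strand), Isg15 at chr4:156200769-156201068 (minus strand) and Rsad2 at chr12:26456403-26456702 (minus strand), each printed 5′ to 3′ along its gene. The windows of Irf7 and Oasl2 held no match, and the levels of Isg15 and Rsad2 are not printed here. A match is a description of these letters, and binding was not measured.
Ifit3: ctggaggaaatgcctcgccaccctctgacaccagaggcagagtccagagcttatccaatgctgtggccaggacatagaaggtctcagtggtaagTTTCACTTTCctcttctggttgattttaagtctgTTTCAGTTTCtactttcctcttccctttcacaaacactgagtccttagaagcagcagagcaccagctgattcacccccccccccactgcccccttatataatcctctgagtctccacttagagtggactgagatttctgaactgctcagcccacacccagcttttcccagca
Isg15: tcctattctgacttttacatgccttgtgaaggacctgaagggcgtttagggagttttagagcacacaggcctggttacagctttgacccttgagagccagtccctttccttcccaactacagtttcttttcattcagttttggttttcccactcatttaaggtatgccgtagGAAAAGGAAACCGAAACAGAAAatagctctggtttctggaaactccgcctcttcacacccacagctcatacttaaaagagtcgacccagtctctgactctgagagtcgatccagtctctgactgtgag
Rsad2: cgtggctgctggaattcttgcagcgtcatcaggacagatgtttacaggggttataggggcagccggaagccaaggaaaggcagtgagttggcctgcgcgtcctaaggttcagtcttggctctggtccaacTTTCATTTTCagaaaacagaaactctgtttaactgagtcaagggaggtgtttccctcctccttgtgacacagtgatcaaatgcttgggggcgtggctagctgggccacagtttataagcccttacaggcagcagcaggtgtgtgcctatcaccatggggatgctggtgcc

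Antigen presentation and microbial sensing leaned toward the monocytes. Of 15 genes for MHC class II presentation, 8 were held higher in monocytes and 1 in macrophages. Cd74, the invariant chain, was at 1208, 1128 and 1007 CPM in macrophages and 3562, 4262, 4225 and 4557 CPM in monocytes (log2 fold change -1.90, SE 0.17, adjusted p = 6.36e-07). H2-Ab1, a chain of the class II molecule, was at 513 ± 117 and 1764 ± 224 CPM (-1.78). The costimulatory genes Cd86 (15.3 ± 8.63 against 166 ± 47.2 CPM, -3.42) and Cd40 (4.67 ± 2.17 against 54.4 ± 11.9 CPM, -3.52) lay further apart. Of 32 pattern recognition and inflammasome genes, 13 were held higher in monocytes and 1 in macrophages. Ly96, which encodes the TLR4 partner MD-2, was at 1.53, 2.19 and 2.51 CPM in macrophages and 53.5, 56.9, 55.9 and 57.4 CPM in monocytes (log2 fold change -4.75, SE 0.24, adjusted p = 1.12e-08). Tlr13, a sensor of bacterial ribosomal RNA, was at 56.2 ± 16.7 and 364 ± 62.6 CPM (-2.69).

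Complement genes were split, with 9 of 17 held higher in monocytes and 5 in macrophages. C3ar1, the receptor for C3a, was at 33.5, 16.7 and 37.3 CPM in macrophages and 214, 348, 494 and 335 CPM in monocytes (log2 fold change -3.58, SE 0.34, adjusted p = 1.37e-06), and C3 itself at 152 ± 16.4 and 788 ± 128 CPM (-2.37). C1qb, a chain of the initiator C1q and typical of tissue macrophages, was at 162, 74.6 and 166 CPM in macrophages and 499.7, 831, 1149 and 489 CPM in monocytes (log2 fold change -2.47, SE 0.37, adjusted p = 1.18e-04), so the cells sorted as monocytes held more of it. Of 16 genes of tissue and interstitial macrophages, 6 were held higher in monocytes and 3 in macrophages.

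Genes of degradation and killing were high in both cell types. Lyz2, lysozyme, was at 8319, 8778 and 6655 CPM in macrophages and 75693, 63708, 71714 and 70725 CPM in monocytes (log2 fold change -3.15, SE 0.17, adjusted p = 1.99e-08). Cybb, the catalytic subunit of the phagocyte NADPH oxidase, was at 303, 384 and 272 CPM in macrophages and 2698, 2014, 2254 and 2932 CPM in monocytes (-2.95), and 8 of 13 genes of the oxidative burst, nitric oxide and arginine list were held higher in monocytes against 1 in macrophages. Of 32 lysosomal genes, 10 were held higher in monocytes, 2 in macrophages and 20 in neither. Gm2a, a cofactor of ganglioside breakdown (224 ± 17.3 against 1883 ± 242 CPM, -3.07), and the protease gene Ctsb (1249 ± 81.9 against 5252 ± 772 CPM, -2.07) were on the monocyte side and Ctsk, described above, on the macrophage side.

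Lipid handling genes were held on both sides. Of 28 genes for lipid uptake, storage and efflux, 9 were held higher in macrophages, a share under the 38.1% of all tested genes, and 8 in monocytes, a share above 9.94%. Of the 28, 25 were among the 9902 genes of 10 CPM or more. There the shares were 21.7% and 21.3%, both below those of the list. The macrophage side included Mgll, monoglyceride lipase, at 146, 162 and 164 CPM in macrophages and 7.33, 14.4, 7.71 and 9.21 CPM in monocytes (log2 fold change 4.02, SE 0.24, adjusted p = 3.21e-08), beside Abcg1 and Cidec. On the monocyte side were the uptake receptors Cd36 (46.1, 34.2 and 75.2 CPM in macrophages and 118, 265, 380.1 and 457 CPM in monocytes, log2 fold change -2.56, SE 0.44, adjusted p = 4.20e-04) and Msr1 (74.6 ± 25.6 against 394 ± 70.8 CPM, -2.40) and the lipid carrier gene Apoe. Apoe was at 630.2, 350.4 and 769 CPM in macrophages and 3259, 5852, 11469 and 5164 CPM in monocytes, an 11.04-fold difference with no overlap (log2 fold change -3.46, SE 0.44, adjusted p = 4.62e-05).

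Of 19 cholesterol synthesis genes, all of 10 CPM or more, 8 were held higher in macrophages and 0 in monocytes. The macrophage share was close to the 38.1% of all tested genes but above the 21.7% of the 9902 genes. For monocytes, 21.3% of the 9902 genes were held. Among the 19, Lss, lanosterol synthase (2.03, SE 0.24, adjusted p = 8.36e-06), Hmgcs1, which forms HMG-CoA (1.57, SE 0.22, adjusted p = 3.34e-05), and Dhcr7 (1.48, SE 0.20, adjusted p = 2.44e-05) were higher in the macrophages.

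Genes associated with fibrotic macrophages were not placed on 1 side as a list. Of 26 such genes, 10 were held higher in monocytes, 3 in macrophages and 13 in neither. Spp1, which encodes osteopontin (ENSMUSG00000029304, chr5:104435118-104441050, GRCm38), was at 2714, 2612 and 2232 CPM in macrophages and 4794, 10653, 18409.9 and 12788 CPM in monocytes (log2 fold change -2.21, SE 0.36, adjusted p = 2.37e-04). It was high in both cell types, and the lowest monocyte library was still above the highest macrophage library, while 19% of its exonic bases are shared with another gene model. Fabp5, a fatty acid-binding protein, was at 220.1, 206 and 192 CPM in macrophages and 414, 803, 1046 and 822 CPM in monocytes (log2 fold change -1.90, SE 0.26, adjusted p = 3.37e-05). Arg1, arginase, was at 669.8, 235 and 557 CPM in macrophages and 2208, 4759.6, 4326 and 3256 CPM in monocytes (log2 fold change -2.90, SE 0.37, adjusted p = 3.63e-05).

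Lgals3, galectin-3, was at 763, 799 and 784 CPM in macrophages and 4167, 5063, 5382 and 4387 CPM in monocytes (log2 fold change -2.60, SE 0.17, adjusted p = 6.52e-08). Pla2g7, a phospholipase that degrades platelet-activating factor, and Ms4a7, a marker of monocyte-derived macrophages, were also held higher in monocytes (-3.67 and -3.62). Gpnmb, a glycoprotein of lipid-laden macrophages, overlapped, at 98.6, 137 and 157 CPM in macrophages and 122, 209, 718 and 275 CPM in monocytes (log2 fold change -1.34, SE 0.55, adjusted p = 0.0551), and was not called. It was called higher in monocytes without monocyte library 1 (-1.56, adjusted p = 0.00456) or 2 (-1.46, 0.0224), with a dispersion estimate that is not robust (0.0226) and with the replicate block (0.0118). Tgfb1, the fibrogenic growth factor, was on the macrophage side at 294, 362 and 283 CPM in macrophages and 76.9, 144, 194 and 245 CPM in monocytes (log2 fold change 0.92, SE 0.30, adjusted p = 0.0147). That call was lost without macrophage library 2 or 3 (adjusted p = 0.0783 and 0.0672).

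Of 23 matrix proteases and inhibitors, 7 were held higher in monocytes and 5 in macrophages. Mmp8, a collagenase gene that is also a neutrophil marker, was at 17.8, 17.4 and 12.95 CPM in macrophages and 945, 567, 732 and 659 CPM in monocytes (log2 fold change -5.50, SE 0.25, adjusted p = 4.65e-09). Timp1, an inhibitor of metalloproteinases, was at 23.04, 11.3 and 10.03 CPM in macrophages and 89.1, 208, 163 and 156 CPM in monocytes (log2 fold change -3.38, SE 0.35, adjusted p = 3.21e-06). On the macrophage side, Timp2, an inhibitor of the same family, was at 150.5 ± 28.4 and 59.1 ± 24.8 CPM (1.35). Of 22 scavenger and efferocytosis receptors, 7 were held higher in macrophages and 5 in monocytes. Axl, a receptor for dying cells (483 ± 71.8 against 244 ± 75.9 CPM, 0.99), and the bridging protein gene Mfge8 (1.32) were on the macrophage side and Cd93 on the monocyte side (-3.46).

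Proliferation genes were higher in the macrophages, with 26 of 30 cell cycle genes held there and 0 in monocytes (median log2 fold change 1.92). Top2a, which untangles DNA in dividing cells, was at 51.7, 33.5 and 60.2 CPM in macrophages and 6.54, 5.23, 4.12 and 5.12 CPM in monocytes (log2 fold change 3.20, SE 0.25, adjusted p = 2.63e-07). Plk1, a mitotic kinase, was at 36.2 ± 7.39 and 2.92 ± 1.23 CPM (3.63). Ccna2, cyclin A, was at 28.4 ± 3.35 and 2.94 ± 0.567 CPM (3.27). Mki67 was at 32.1, 46.3 and 16.4 CPM in macrophages and 10.4, 12.6, 7.64 and 8.40 CPM in monocytes (log2 fold change 1.70, SE 0.31, adjusted p = 3.57e-04). The macrophage libraries lay above the monocyte libraries for each of these 4 genes.

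**Figure D3:**
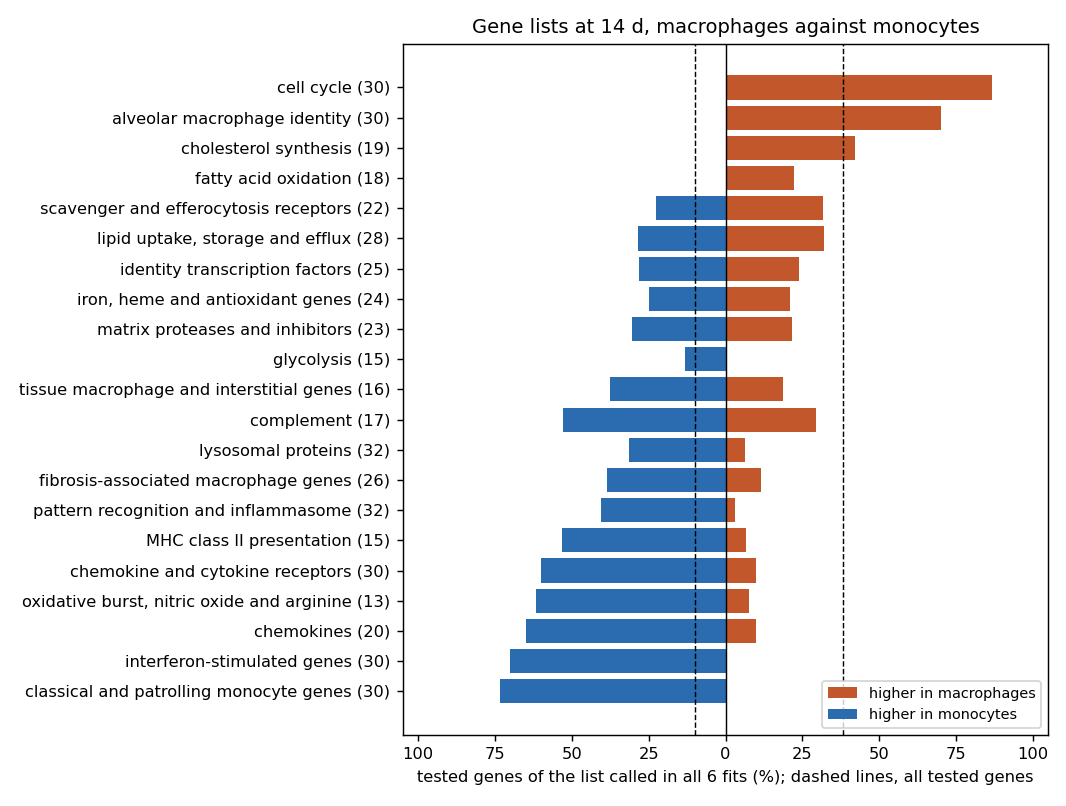
Share of the tested genes of each list other than sort, cell type marker and sex chromosome lists (x axis, %, number tested in brackets beside the list on the y axis) held higher in macrophages (orange, to the right) or monocytes (blue, to the left) at 14 d, with dashed lines at the shares of all tested genes, 38.1 and 9.94%. Cell cycle and alveolar macrophage identity genes reach furthest to the macrophage side, and monocyte and interferon-stimulated genes to the monocyte side.

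The largest differences in each direction were of different kinds. Of the 15 largest in monocytes, 11 were protein coding and 8 of these shared no exonic base with another gene. They included Ly6c2, Ifitm6, F13a1 and Ifitm3, an antiviral membrane protein (10.9 ± 5.14 against 3351 ± 411 CPM, -8.26). Of the 15 largest in macrophages, 2 were protein coding and 6 had no count in any monocyte library at 14 d. The gene model Gm20721, at 992, 729 and 1574 CPM against 0.242, 0.315, 0.609 and 0.819 CPM, shares 99% of its exonic bases with Gnas. Antisense genes (198) were held higher in macrophages in 86.9% of cases at 14 d and in 87.9% in controls, and processed pseudogenes (254) in 81.5% and 47.6%. Whether the tables were counted in the same way was not tested.

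Among protein-coding genes that share no exonic base with another gene, a set chosen after the values were seen, the differences on the macrophage side were led by Serpinh1, a collagen chaperone, at 150.5, 93.7 and 259 CPM in macrophages and 0.545, 0.944, 0.744 and 1.74 CPM in monocytes (log2 fold change 7.35, SE 0.43, adjusted p = 4.92e-08). Nckap1, of the actin-regulating WAVE complex (5.97, SE 0.35, adjusted p = 2.76e-08), Ptms (4.98, SE 0.28, adjusted p = 2.22e-08), Basp1 (4.57, SE 0.26, adjusted p = 2.19e-08) and Sparc, a collagen-binding matricellular protein (3.79, SE 0.29, adjusted p = 2.05e-07), were among those that followed. The gene models Gm10800 and Gm21738 and the identity genes Krt79, Krt19 and Marco also ranked above Sparc. Serpinh1 and Sparc are typical of fibroblasts, and some markers of other cells were on the macrophage side too. Of 10 tested fibroblast markers, 8 were held higher in macrophages, and their summed level was 138 to 307 CPM against 25.3 to 37.6 CPM in monocytes. Col3a1, a collagen chain, was at 137, 81.01 and 229 CPM in macrophages and 1.33, 4.03, 1.28 and 9.27 CPM in monocytes (log2 fold change 5.19, SE 0.75, adjusted p = 5.70e-04). The part of fibroblasts in these levels was not tested.

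Eosinophil markers, which include Siglecf, were held higher in macrophages for 7 of 7 genes, with a sum of 161 to 299 CPM against 13.3 to 18.9 CPM. Prg2, the eosinophil major basic protein, was at 63.1, 14.7 and 68.2 CPM in macrophages and 0, 0.0630, 0 and 0.307 CPM in monocytes (log2 fold change 8.75, SE 0.76, adjusted p = 2.00e-06), and Epx had no count in the monocytes. Endothelial markers summed to 86.5 to 101.3 CPM against 40.6 to 45.7 CPM (6 of 10 held higher in macrophages), T and NK cell markers to 92.2 to 121 CPM against 47.5 to 82.3 CPM (3 of 15 held higher in macrophages and 2 in monocytes) and erythroid and platelet markers to 41.8 to 155 CPM against 12.5 to 136 CPM (1 of 8 held higher in either).

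Other marker sums reached higher values in the monocytes, with overlap between the cell types for neutrophil and B cell markers. A sum follows its most abundant genes. For B cell and epithelial markers more genes were held higher in macrophages than in monocytes, against the direction of the sums. Mmp8, described above, made up a large part of the neutrophil sum in monocytes. Neutrophil markers summed to 375 to 1429 CPM in macrophages against 1341 to 2525 CPM in monocytes (3 of 14 held higher in macrophages and 4 in monocytes), with S100a9 at 426, 559 and 85.6 CPM in macrophages and 223, 246, 39.9 and 48.8 CPM in monocytes (log2 fold change 1.36, SE 0.87, adjusted p = 0.207). B cell markers summed to 180 to 318 CPM against 279 to 446 CPM (7 of 10 held higher in macrophages and 1 in monocytes), dendritic cell markers to 58.8 to 202 CPM against 278 to 358 CPM (4 of 12 held higher in either) and epithelial markers to 216 to 309 CPM against 597 to 812 CPM (5 of 16 held higher in macrophages and 1 in monocytes). The study's monocyte gate excluded CD45- cells, eosinophils, neutrophils and lymphocytes, and gates of the macrophage sort beyond SigF+CD11b- are not given in the sources used here. The part of other cells in the differences given above was not tested.

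The comparison of control macrophages with control monocytes showed which differences were there without induced injury. Over the 24388 genes tested in a fit of 15 libraries, 22.4% were held higher in macrophages and 13.5% in monocytes in controls. Of the 9902 genes, 2780 were held higher in macrophages and 1987 in monocytes in controls, and 1717 and 1395 of these were held in the same direction at 14 d. A further 867 held higher in control macrophages were not called at 14 d with TMM, and 102 held higher in control monocytes were not. These counts set calls held in 6 fits in controls against the TMM fit alone at 14 d. With TMM, the median log fold change of the 9902 genes was -0.70 at 14 d and -0.04 in controls. Since the split of 14 d calls turned with the scaling, the counts cannot show that macrophage differences were lost more often. The contrasts use different libraries, and their difference was tested as a change of the cell type difference, which was held toward macrophages for 14.4% of the 24388 genes and toward monocytes for 3.86%. Among the 9902 genes it was held toward macrophages for 915 (9.24%) and toward monocytes for 797 (8.05%). The 14 d libraries carried 433 to 3033 counts on Y-linked genes and 1 to 32 on Xist, and the control libraries 0 to 3 and 960 to 4444, so that sex and injury cannot be told apart in any change from control to 14 d.

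Part of the alveolar macrophage programme lost distance, by 9 of 30 identity genes with a change held toward monocytes and 0 toward macrophages. Mrc1 stood at 1381 ± 192 CPM (mean ± SD on the scale of the 15 libraries) in control macrophages, 371 ± 75.7 at 14 d, 51.5 ± 13.4 in control monocytes and 169.7 ± 48.3 at 14 d, and the difference shrank by 3.62 on the log2 scale (SE 0.33, adjusted p = 9.85e-07). Lpl was at 2197 and 1092 CPM in macrophages and at 251 and 791 CPM in monocytes (change -2.67, SE 0.42, adjusted p = 2.15e-04). F7 and Olr1, which overlapped at 14 d, had changes of -3.50 (SE 0.69, adjusted p = 0.00198) and -3.56 (SE 0.40, adjusted p = 7.18e-06). Krt79 and Siglecf, in contrast, had changes of -0.02 (SE 1.29, adjusted p = 1.000) and 0.22 (SE 0.80, adjusted p = 0.856), both too imprecise for a statement on stability.

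Monocyte genes lost distance too, with 15 of 30 changing toward macrophages and 0 toward monocytes. F13a1 was at 0.432 CPM in control macrophages and 10.4 CPM at 14 d, against 2347 and 2559 CPM in monocytes (change 4.44, SE 0.62, adjusted p = 1.36e-04). Itgam went with it, at 1.497 and 55.3 CPM in macrophages and 339 and 342 CPM in monocytes (change 5.19, SE 0.38, adjusted p = 1.12e-07). Cd177, a surface protein known from neutrophils, had the largest change toward macrophages among genes over 100 CPM in any of the 4 groups, at 0.313 and 46.98 CPM against 749 and 760.1 CPM (change 7.18, SE 0.73, adjusted p = 1.46e-05). Neutrophil markers changed the same way for 5 of 14 genes and T and NK cell markers for 7 of 15.

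The distance between the cell types in interferon-stimulated genes was smaller than in controls, with 21 of 30 changes held toward macrophages and 0 toward monocytes. Oasl2 was at 423 CPM in control and 55.98 CPM in 14 d monocytes, and at 2.97 and 12.98 CPM in macrophages (change 5.05, SE 0.44, adjusted p = 1.23e-06). Irf7 was at 895 and 129 CPM in monocytes and 7.77 and 7.37 CPM in macrophages (change 2.72, SE 0.55, adjusted p = 0.00184). Both genes were held higher in monocytes at 14 d and in controls.

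**Figure D4:**
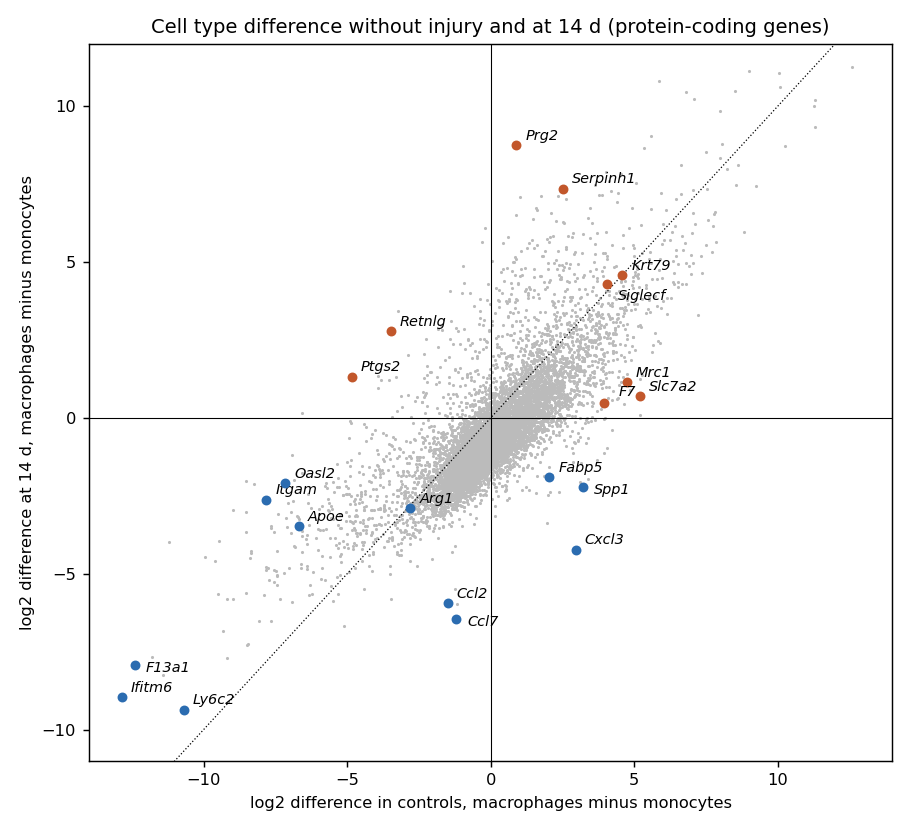
Log2 difference between macrophages and monocytes in controls (x axis, 15-library fit) and at 14 d (y axis) for protein-coding genes, with named genes in orange (above 0 at 14 d) or blue (below 0) and the line of equal difference dotted. Spp1, Fabp5 and Cxcl3 lie above 0 in controls and below 0 at 14 d, and Ly6c2 near the dotted line.

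Only 10 of the 9902 genes were held higher in control macrophages and held higher in monocytes at 14 d, namely Spp1, Fabp5, Cxcl3, Rab3il1, Emp1, Pdcd1lg2, Cdc42ep3, Fpr2, Scimp and Fcrlb. Spp1 was at 648 ± 546 CPM in control macrophages and 69.5 ± 38.5 CPM in control monocytes, and at 2245 ± 218 and 10504 ± 5076 CPM at 14 d (change -5.45, SE 1.00, adjusted p = 0.00164). Its mean was higher at 14 d than in controls in both cell types, and by more in the monocytes. Fabp5 was at 405 and 184 CPM in macrophages and 98.1 and 694 CPM in monocytes (change -3.96, SE 0.44, adjusted p = 1.40e-05). Cxcl3, a chemokine for neutrophils, changed by -7.22 (SE 0.72, adjusted p = 5.69e-06), Rab3il1, a regulator of vesicle traffic, by -4.76 (SE 0.53, adjusted p = 1.45e-05), and Emp1, a membrane protein, by -4.46 (SE 0.34, adjusted p = 1.49e-07).

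Of 20 chemokines, 8 changes were held toward monocytes and 2 toward macrophages, and of 23 matrix proteases and inhibitors 6 in each direction. Ccl7 was at 6.83 CPM in control and 346 CPM in 14 d monocytes and at 2.94 and 3.95 CPM in macrophages (change -5.26, SE 1.04, adjusted p = 0.00229). Ccl2 changed by -4.46 (SE 0.42, adjusted p = 1.82e-06). Timp1 was at 0.848 and 139 CPM in monocytes against 3.23 and 13.2 CPM (change -5.37, SE 1.22, adjusted p = 0.00554). Arg1 behaved otherwise, since it was higher at 14 d in both cell types, from 2.23 to 435 CPM in macrophages and from 15.6 to 3275 CPM in monocytes, and the change of the difference was -0.11 (SE 1.27, adjusted p = 0.973).

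In the opposite direction, 45 genes (37 protein coding) were held higher in control monocytes and held higher in macrophages at 14 d. Ptgs2, the inducible cyclooxygenase, was at 1.94 ± 0.948 CPM in control and 53.6 ± 30.2 CPM in 14 d macrophages and at 55.5 ± 28.1 and 21.6 ± 5.78 CPM in monocytes (change 6.15, SE 0.72, adjusted p = 3.52e-05). Its 14 d groups overlapped (78.2, 81.6 and 21.03 CPM against 15.5, 22.8, 29.6 and 28.2 CPM), and the 14 d call was lost without the second macrophage library (adjusted p = 0.0658). Retnlg, a neutrophil marker, changed by 6.25 (SE 1.41, adjusted p = 0.00498), beside the neutrophil marker sums given above. Apoe and C1qb, held higher in monocytes at both times, came closer, with macrophage levels of 50.6 and 520.2 CPM for Apoe (change 3.20, SE 0.60, adjusted p = 0.00140) and of 1.26 and 119.9 CPM for C1qb (change 2.66, SE 0.83, adjusted p = 0.0264). The change of C1qb was no longer called without control macrophage library 4 (adjusted p = 0.0505) or 14 d macrophage library 1 or 3 (0.0613 and 0.0663).

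**Figure D5:**
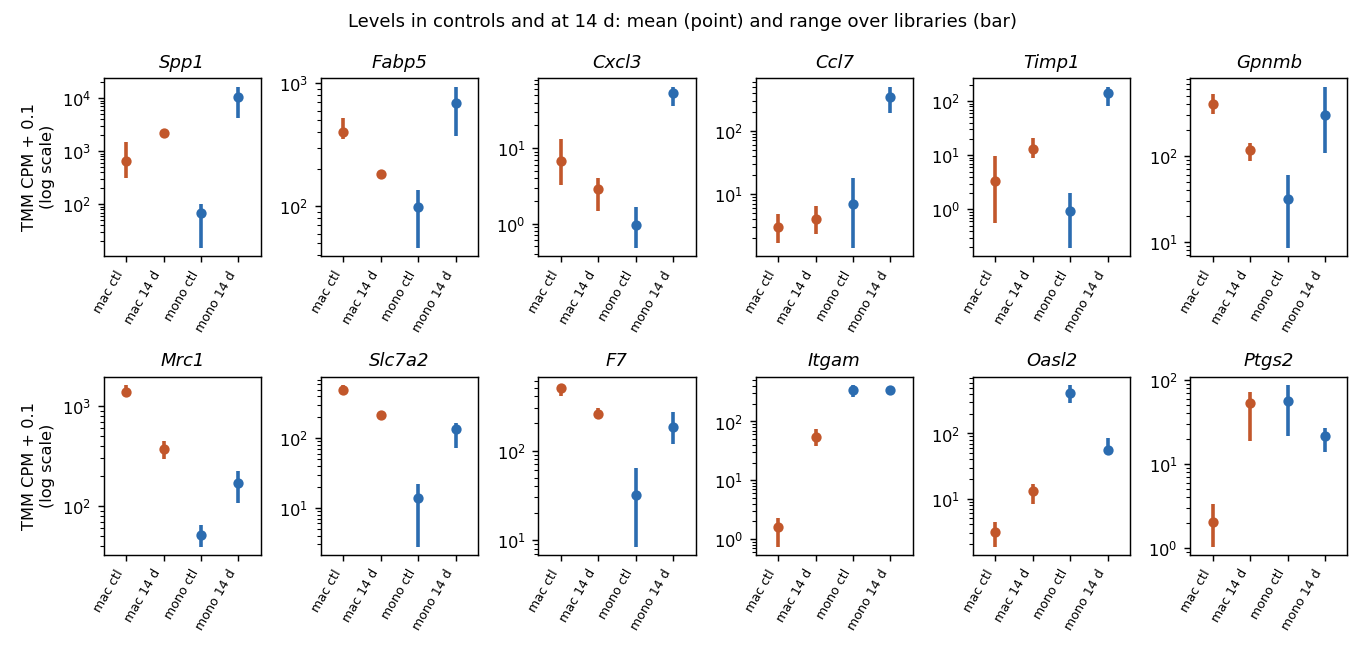
Level of 12 genes (y axis, TMM CPM + 0.1 on the scale of the 15 libraries, log scale) in control and 14 d macrophages (orange) and control and 14 d monocytes (blue) on the x axis, as mean (point) and range over libraries (bar). The order of the means turns between control and 14 d for Spp1, Fabp5, Cxcl3, Timp1, Gpnmb and Ptgs2, and the F7 ranges overlap at 14 d.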

How the data were processed

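RNA was sequenced from sorted lung cells (poly(A)-selected, paired-end), and the authors deposited 1 table of unnormalized gene counts for each cell type. The submitters' processing notes name STAR 2.7.2c and 2.7.3a, featureCounts 1.6.3, DESeq2 1.26.0 and 1.28.1 and the build GRCm38. The annotation release, the strand setting and the STAR version behind each table are not given in the sources used here. The tables were joined on 31116 Ensembl IDs (18 IDs were in the macrophage table only and 24305 in the monocyte table only), and gene models came from GENCODE on GRCm38.

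The 7 libraries at 14 d were fitted with edgeR 4.0.16 in R 4.3.3 (filterByExpr, TMM, robust quasi-likelihood test, Benjamini-Hochberg adjustment), which left 23310 genes. Controls and the change of the difference used a fit of 15 libraries over 4 groups. CPM carry TMM factors and no length correction, so levels of a gene, or of the sum over a marker list, were compared between libraries and not between genes. All tests were two-sided. The members and lists were chosen with earlier results of these data known. The rule of a held call and the set of protein-coding genes that share no exonic base were chosen after the data were seen. Named genes were the sort markers, the 15 largest differences per direction among genes of 100 CPM or more without overlap, up to 4 called genes per list and direction with the 2 most abundant, 10 abundant genes with an interval inside 1.5-fold, and the 8 largest changes per direction, of which some are printed and some are not reported here. Alternatives were DESeq2 1.42.0, other scalings and filters, glmTreat, thinned counts, other fits and each library left out. The fits were also run on simulated counts, with equal numbers of raised and lowered genes on 1 shared profile. Such counts cannot speak to the dependence on scaling, and their outcome is not reported here. Floors of 3 counts cover counting error only, and p-values measure the spread between libraries, whose animals are not stated.

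Replicate numbers of the labels were checked for pairing through the correlation of deviations from the group means. At 14 d the same numbers gave r = 0.037, -0.049 and 0.036 and were not taken as pairs. The column names of the counts carry other numbers at 14 d. By these, macrophage libraries 1, 2 and 3 match monocyte libraries 2, 3 and 4, with r = 0.025, 0.011 and 0.083. Neither numbering is stated to name animals, so pairing at 14 d stays unknown. In controls they gave r = 0.167, 0.191, 0.201 and 0.171, yet the control and change results printed above come from fits without pairing. As an alternative, a replicate block gave 11730 called genes in controls in place of 11509. That block joined control and 14 d libraries of the same label number, so it is not a paired fit of the controls alone. At 14 d it did not join the libraries that match by column name.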

Additional observations from a re-analysis of the deposited data

Results flagged for a closer look

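In the 4 monocyte libraries at 14 d, a single library stood apart for 5 of the genes described. The gap to the nearest library, divided by the range, was 0.970 for Oasl2, 0.910 for Lss, 0.884 for Gm2a, 0.840 for Rab3il1 and 0.834 for Gpx1, above Dixon's critical value for 4 libraries, which chance passes in about 1 of 20 groups. With as many genes as are described here, chance alone can give such a number. Oasl2 was high in library 4, Lss low in library 3, Gm2a low in library 2, Rab3il1 low in library 1 and Gpx1 low in library 4.

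The cell type difference was not the same at 14 d as in controls for the genes that follow, tested as a change of the log2 difference (edgeR's quasi-likelihood test over 15 libraries). It moved toward the monocytes for Cxcl3 (-7.22), Spp1 (-5.45), Timp1 (-5.37), Ccl7 (-5.26), Gpnmb (-5.05), Rab3il1 (-4.76), Slc7a2 (-4.51), Ccl2 (-4.46), Emp1 (-4.46), Tfec (-4.01), Fabp5 (-3.96), Mrc1 (-3.62), Olr1 (-3.56), F7 (-3.50), Cebpa (-3.37), Lpl (-2.67) and Itgax (-2.17). It moved toward the macrophages for Prg2 (7.86), Cd177 (7.18), Retnlg (6.25), Ptgs2 (6.15), S100a9 (5.25), Itgam (5.19), Oasl2 (5.05), Serpinh1 (4.82), F13a1 (4.44), Usp18 (4.34), Slc11a1 (4.12), Ifitm6 (3.87), Cx3cr1 (3.85), Sparc (3.50), Col3a1 (3.36), Apoe (3.20), Irf7 (2.72) and C1qb (2.66). Control libraries carried Xist and almost no Y-linked counts and the 14 d libraries the reverse, and the part of sex in these changes was not tested.

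The monocyte table held 24305 genes that the macrophage table lacked, 5891 of them without a count. The highest count among these was that of Gm26917, with a mean of 25461 counts per monocyte library at 14 d.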

How the results depend on the processing

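Calls at 14 d numbered 15491 over all tested genes, 11509 in controls and 8700 for the change of the difference. Limiting the tested genes to a mean CPM of 10 or more gave 6400, 6458 and 3270, with fewer genes tested and TMM factors drawn from these genes alone. Protein-coding genes that share no exonic base, a set chosen after the data were seen, gave 7330, 5085 and 4255 in the same way. The glmTreat test gave 5796 calls for the change. Leaving out each library in turn gave 13356 to 14674 calls at 14 d, 10800 to 11335 in controls and 7165 to 9482 for the change. The replicate block, set by the label numbers, gave 14836, 11730 and 8805 calls. The number of genes with CPM of 10 or more was 9902, against 10547 with library size and 9923 with upper quartile scaling, 12058 at a CPM of 5 and 7808 at a CPM of 20.

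Of 3746 pairs of a named gene's value and an alternative, 3685 (98.4%) kept their call or lack of one, among them 52 pairs, over 9 values, whose sign turned without a call in either fit (Arg1, Krt79 and Siglecf for the change, and Chil3, Cotl1, Hsp90ab1, Ly6g, Spn and Tfec at 14 d). A further 25 lost the call, 33 gained it and 3 turned sign with a call in the alternative. Those 3 were Spn with library size (0.88) and with TMM factors from abundant genes (0.79) and Chil3 with library size (0.64), since these scalings shift all log2 fold changes toward macrophages. With the replicate block Ccl24 (adjusted p = 0.0834), Cxcl14 (0.0606), Retnlg (0.149), Ptgs2 (0.183) and the change of S100a9 (0.0646) lost their calls and Gpnmb (0.0118) and S100a9 at 14 d (7.76e-05) gained one, and it changed no other named call. Slc7a2 lost its 14 d call without macrophage library 1 (0.0617) or 3 (0.0529) and without monocyte library 1 (log2 fold change 0.55). It also lost it with glmTreat (adjusted p = 0.189) and in the fits of 15 (0.184) and 22 libraries (0.296). Prg2 lost its change without control monocyte library 2 (6.28, adjusted p = 0.129).

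The main limits are the scaling, which sets the split of directions, the shallower macrophage libraries, and tables that differ by cell type. Genes with small differences cannot be placed on either side.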

Other observations

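Of 24 genes of iron handling and antioxidant defence, 5 were held higher in macrophages and 6 in monocytes at 14 d. Both shares were close to those of the 9902 genes (21.7% and 21.3%), so the list did not stand out from them. Over all tested genes the shares were 38.1% and 9.94%. Gpx1, which reduces hydrogen peroxide, was at 666, 643 and 602 CPM in macrophages and 7005, 6915, 6637 and 5058 CPM in monocytes (log2 fold change -3.33, SE 0.19, adjusted p = 2.03e-08). Slc11a1, the iron transporter of the phagosome, was at 41.7, 32.02 and 45.1 CPM in macrophages and 403, 386, 539 and 498 CPM in monocytes (log2 fold change -3.53, SE 0.21, adjusted p = 3.64e-08), and its control macrophages were at 3.28 CPM against 35.3 CPM at 14 d (change of the difference 4.12, SE 0.23, adjusted p = 3.34e-09). Slc40a1, the iron exporter ferroportin, was the other way round, at 16.1, 20.4 and 11.8 CPM in macrophages and 1.21, 2.39, 2.64 and 1.95 CPM in monocytes (log2 fold change 2.98, SE 0.33, adjusted p = 5.29e-06).

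Energy metabolism genes differed less firmly. Of 15 glycolysis genes, 2 were held higher in monocytes and 0 in macrophages, namely Eno1, enolase (717 ± 179 against 2686 ± 366 CPM, -1.90), and Ldha, lactate dehydrogenase (529 ± 109 against 1751 ± 213 CPM, -1.73). Of 18 fatty acid oxidation genes, 4 were held higher in macrophages and 0 in monocytes. The macrophage share was close to the 21.7% of the 9902 genes and under the 38.1% of all tested genes. For monocytes those shares were 21.3% and 9.94%. With TMM alone, 4 of the 18 were called higher in macrophages and 9 in monocytes, and of the glycolysis genes 0 and 13. Among the 9902 genes TMM called 22.8% and 52.1%. Hadha of the mitochondrion was at 129 ± 17.95 and 76.2 ± 4.95 CPM (log2 fold change 0.76, SE 0.17, adjusted p = 0.00129), a call that glmTreat did not keep (adjusted p = 0.0883).

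Among abundant genes with an interval inside 1.5-fold either way, Hsp90ab1, a chaperone, was at 781, 756 and 1009 CPM in macrophages and 705, 866, 867 and 823 CPM in monocytes (log2 fold change 0.06) and Cotl1, an actin-binding protein, at 621, 701 and 580.4 CPM in macrophages and 568, 605, 740.4 and 614 CPM in monocytes (0.01). Both were called higher in macrophages with library size scaling (1.11 and 1.05), so that a trait held in common depends on the scaling as well.

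Letters of 2 other motifs were counted in the promoter windows. TCACGTGA, read alike on both strands and bound by TFEB, was in 4 of 24 lysosomal genes with a window (16.7%) in 2.51% of the genes with CPM of 10 or more and in 1.12% of all genes. GCGGGAA (reverse TTCCCGC), bound by E2F factors, was in 3 of 23 cell cycle genes, in 9.92% of the genes with CPM of 10 or more, in 10.8% of those held higher in macrophages and in 5.29% of all genes.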
